A study of Mus musculus with 27 samples.

Results

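The B-cell receptor signalling components described here are 30 named genes, all of them found among the 30735 genes of the expression table. By the role most often given to them, 20 activate signalling, 6 inhibit it and 4 (Lyn, Grb2, Lat2 and Bank1) do both. RNA was sequenced from 27 samples of mouse B cells purified by the surface marker B220. The 19 lymphomas came from c-myc Igh transgenic mice named hv (7 samples), cr (7), co (4) or, for 1 sample, hv in its title and CO in its description. They were taken from lung (12 samples), mesenteric lymph node (4, all cr) or peripheral lymph node (3). The LPS group held 4 samples of splenic B cells of healthy animals treated for 2 days with lipopolysaccharide, a bacterial cell-wall product that makes B cells divide through a Toll-like receptor. The resting group held 4 samples of untreated splenic B cells. Each of these groups had 1 sample of wt, cr, co and hv genotype, and the cr, co and hv samples carried the c-myc Igh transgene too, so only the wt samples lacked it. The labels give neither the meaning of hv, cr and co nor the ages of the animals, and no label ties a sample to its own mouse. The p-values below therefore rest on sample-to-sample spread, part of which may be technical.

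The B-cell receptor is a surface immunoglobulin held by the Cd79a and Cd79b chains. When antigen binds, the kinase Lyn phosphorylates tyrosines in the cytoplasmic tails of these chains, Syk docks there, and the adaptor Blnk brings Btk, Plcg2 and Vav proteins together. Calcium, protein kinase C beta and the Malt1 and Bcl10 proteins then carry the signal to NFAT and NF-kappa-B, while phosphoinositide 3-kinase carries it to Akt. Inhibitory receptors such as Cd22, Cd72 and Fcgr2b hold tyrosine motifs of another kind, which recruit the phosphatases Ptpn6 (SHP-1) and Inpp5d (SHIP-1).

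These motifs are shown because they set apart the activating chains and the inhibitory receptors, the roles by which the members are grouped below. Each line gives the coding DNA of the reference transcript (GENCODE M21, GRCm38), 5′ to 3′ on the coding strand, with the tyrosine codons in capitals. Cd79a and Cd79b each carry an activating motif (ITAM) of 18 codons with a pair of tyrosines, which lies at chr7:24901287-24901469 (plus strand) and chr11:106311867-106312021 (minus strand) and is split by an intron in both genes. The inhibitory motifs (ITIM) of 6 codons have 1 tyrosine each. They lie on the minus strand at chr1:170961071-170961088 in Fcgr2b, at chr7:30867494-30867511, chr7:30867033-30867050, chr7:30866600-30866617 and chr7:30866540-30866557 in Cd22, and at chr4:43454498-43454515 and chr4:43454306-43454323 in Cd72.
Cd79a ITAM: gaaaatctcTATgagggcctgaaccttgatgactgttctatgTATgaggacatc
Cd79b ITAM: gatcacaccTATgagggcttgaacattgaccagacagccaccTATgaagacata
Fcgr2b ITIM: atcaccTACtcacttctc
Cd22 ITIM nearest the membrane: gttagtTATgccatcttg
Cd22 next ITIM: gtcactTACtcggtgata
Cd22 next but one ITIM: atccatTACtcagagctg
Cd22 ITIM farthest from the membrane: gtagacTATgtgaccctc
Cd72 ITIM nearest the amino end: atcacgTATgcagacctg
Cd72 ITIM nearer the membrane: ctcaccTACgagaatgtg

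Values are TPM, relative abundances of transcripts corrected for length and scaled to the same sum in each library. The depth was 11500000 to 32000000 read pairs per library, and the lowest member in any library rested on about 16 read pairs. The members together made up 0.228 to 0.602% of all TPM in lymphomas, 0.205 to 0.371% in LPS libraries and 0.403 to 0.768% in resting libraries. In 4 libraries the repeat-rich gene Gm10800 took over 1% of TPM, at most 18.6% in the LPS cr library, the others being the LPS hv and resting wt libraries and the lymphoma MLN.cr.T6. The resting wt library also stood apart in the members: it was the highest of the 4 resting libraries for 28 of the 30, against 48.8% of all 11365 genes compared, and its members exceeded the mean of the other 3 by a median of 0.64 on the log2 scale, against 0.19 for all genes. For 9 lymphomas, all of lung, the parts of the sample name are joined, and for 10 they are separated; this difference in naming was checked as a possible batch. The 8 B-cell markers summed to 1510 to 8170 TPM in lymphomas, 1930 to 3140 in LPS libraries and 5660 to 10500 in resting libraries, and none of them was under 0.5 TPM throughout a group. Erythroid markers, mostly haemoglobin, summed to at most 1130 TPM in lymphomas and 2210 in LPS libraries, against 11700 to 112000 in resting libraries.

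**Figure D1:**
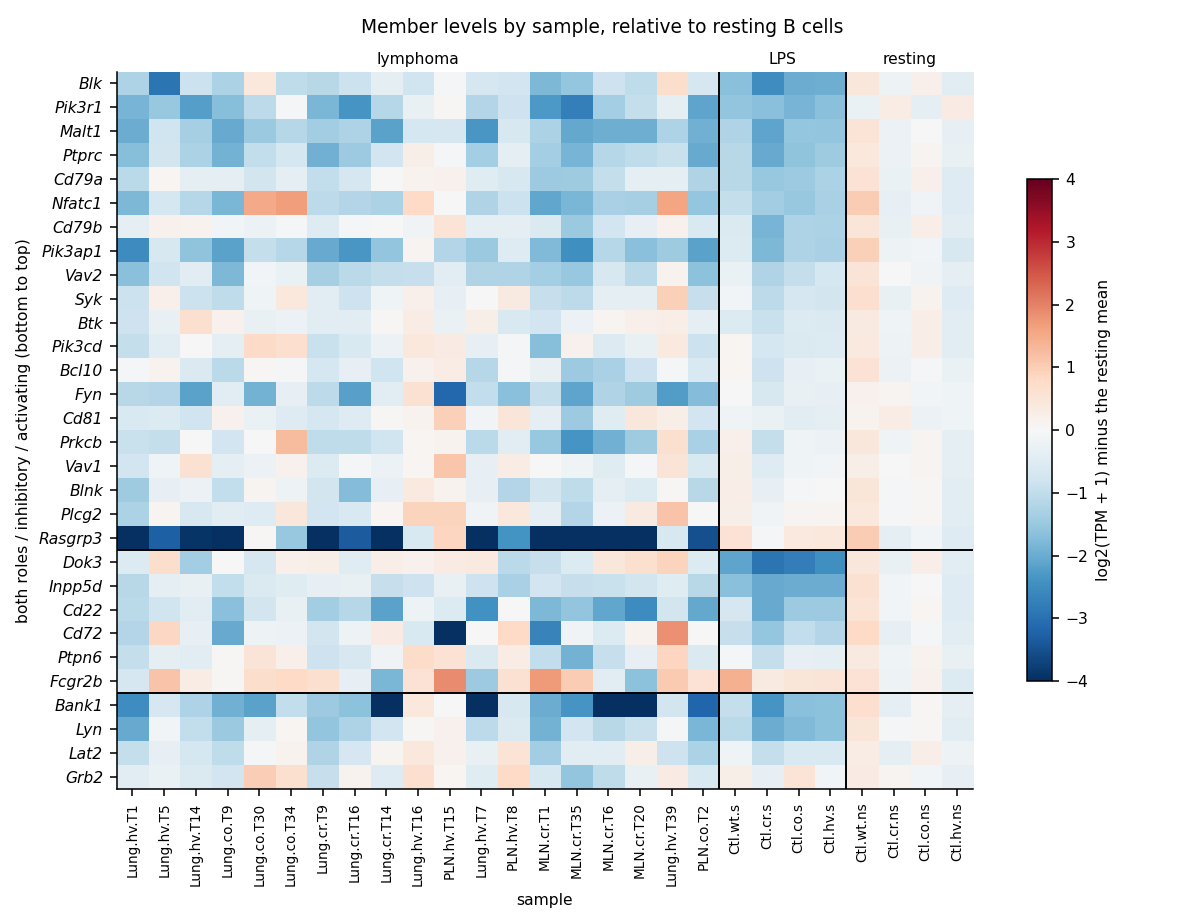
Level of each of the 30 members (rows, grouped by role) in each of the 27 samples (columns, lymphomas, LPS and resting), as log2(TPM + 1) minus the mean of the resting samples, with the colour scale ending at 4 in either direction. Bank1 and Rasgrp3 show the widest range among lymphomas, and the LPS columns are lower for Dok3, Blk and Inpp5d.

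LPS treatment was accompanied by lower levels of the receptor chains, of the Src-family kinases Blk and Lyn and of 4 of the 6 inhibitory members. With limma on log2(TPM + 1) and adjustment over all 11999 genes tested, 17 of the 30 members fell, 0 rose and 13 did not pass the threshold of 0.05 (58.2% of all genes were called, 25.2% higher and 33.0% lower). In 14 of the 30 members, all of them among the 17, every LPS value was below every resting one. That held for 3539 of all 11999 genes (29.5%), beside 3955 genes called lower. The fall covered 10 of 20 activating, 4 of 6 inhibitory and 3 of 4 members with both roles. The median log2 fold change was -0.72 over the members, -0.65 over the activating, -1.28 over the inhibitory and -1.10 over the 4 with both roles, beside -0.16 over all genes. In bulk RNA, fewer cells of a type and less RNA per cell cannot be told apart.

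The receptor's signalling chains both fell. Cd79a had 226, 169, 176 and 201 TPM in LPS-treated wt, cr, co and hv cells, against 719, 407, 560 and 339 TPM in resting cells of the same genotypes. Every LPS library was below every resting one, with a log2 fold change of -1.33 ± 0.23 (SE; limma adjusted p = 0.00039). Cd79b, its partner chain, had 518, 215, 327 and 324 TPM in LPS-treated cells, against 1090, 634, 924 and 565 TPM in resting cells. These groups did not overlap either, though the LPS wt value came close to the lowest resting one (-1.23 ± 0.28, limma adjusted p = 0.003). Ptprc (CD45), the phosphatase that keeps Src-family kinases ready, had 288, 156, 207 and 233 TPM in LPS-treated cells and 848, 533, 676 and 513 TPM in resting cells, a difference of -1.54 ± 0.23 (limma adjusted p = 0.00012).

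The kinases did not move as a group. Blk, a Src-family kinase largely restricted to B cells, had 44.8, 25.4, 35.9 and 37.4 TPM in LPS-treated cells, against 199, 128, 167 and 107 TPM in resting cells. This was the largest fall of an activating member, at -2.02 ± 0.23 (limma adjusted p = 1.7e-05). Lyn, the Src-family kinase that phosphorylates activating and inhibitory receptors alike, had 83.0, 43.2, 50.7 and 55.8 TPM in LPS-treated cells, against 244, 167, 180 and 130 TPM in resting cells (-1.62 ± 0.24, limma adjusted p = 0.0001). Fyn, the other member of that family on the list, did not pass the test at -0.32 ± 0.18 (95% interval -0.71 to 0.08). Syk, the kinase that docks on the ITAMs, had 195, 100, 130 and 125 TPM in LPS-treated cells and 334, 172, 231 and 145 TPM in resting cells. The Syk groups overlapped and the difference of -0.65 ± 0.28 missed the threshold (limma adjusted p = 0.061). It was called lower under 6 of the 17 alternatives tried (adjusted p = 0.008 to 0.593 over all 17). Btk, the Tec-family kinase that activates Plcg2, had 40.6, 31.9, 40.7 and 40.2 TPM in LPS-treated cells and 77.9, 53.5, 72.4 and 43.7 TPM in resting cells. Its fall of -0.65 ± 0.21 passed (limma adjusted p = 0.017), but not without the resting co library (adjusted p = 0.057). Nor did it pass without the libraries rich in Gm10800 (adjusted p = 0.130), which in this comparison are LPS cr, LPS hv and resting wt. Few LPS libraries then remain, so a call lost this way does not show that it depends on the libraries left out.

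Downstream, Pik3r1, Pik3ap1 and the Malt1 protease fell, while Pik3cd, the catalytic subunit p110 delta, and the phospholipase Plcg2 with its adaptor Blnk did not pass the test. Pik3r1, the regulatory subunit p85 alpha, had 18.2, 17.2, 14.9 and 17.2 TPM in LPS-treated cells, against 47.1, 69.7, 43.1 and 71.6 TPM in resting cells. Its LPS libraries lay close together and far below the resting ones (-1.69 ± 0.20, limma adjusted p = 2.1e-05). Malt1 (-1.61 ± 0.23), Nfatc1 (-1.29 ± 0.30), Pik3ap1 (-1.22 ± 0.36) and Vav2 (-0.79 ± 0.24) also fell; Pik3ap1 (BCAP) is an adaptor for the kinase. Pik3ap1 and Vav2 did not pass without the libraries rich in Gm10800, where few LPS libraries remain (adjusted p = 0.074 and 0.140). Blnk (-0.04, 95% interval -0.51 to 0.43), Plcg2 (0.07, -0.35 to 0.50), Vav1 (-0.13, -0.57 to 0.31), Prkcb (-0.29, -0.84 to 0.26), Bcl10 (-0.34, -0.85 to 0.18), Pik3cd (-0.44, -0.93 to 0.06) and the co-receptor tetraspanin Cd81 (-0.31, -0.70 to 0.07) did not pass. Rasgrp3, which activates Ras in response to diacylglycerol, had 61.8, 39.3, 53.9 and 55.5 TPM in LPS-treated cells and 82.7, 31.4, 37.6 and 28.2 TPM in resting cells. The high resting value is the wt library; the difference was 0.34 ± 0.31 with it (limma adjusted p = 0.362) and 0.68 ± 0.21 without it (limma adjusted p = 0.010).

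Among the inhibitory members, Dok3 and Inpp5d fell furthest and Fcgr2b had a positive fold change. Dok3, an adaptor that dampens receptor signalling, had 15.8, 8.42, 9.66 and 12.2 TPM in LPS-treated cells, against 98.2, 57.5, 85.7 and 52.2 TPM in resting cells. This was the largest change of any member, at -2.56 ± 0.24 (limma adjusted p = 4.9e-06). Inpp5d, the lipid phosphatase SHIP-1, had 86.4, 68.9, 69.8 and 70.9 TPM in LPS-treated cells, against 433, 258, 281 and 197 TPM in resting cells (-1.91 ± 0.23, limma adjusted p = 2.1e-05). Its 344-base transcript Inpp5d-205 averaged 6.18 ± 1.3 TPM in LPS-treated and 86.0 ± 33.0 TPM in resting cells. The 4937-base coding Inpp5d-210 fell by less, at 18.2 ± 2.83 and 31.3 ± 7.73 TPM. Cd22, the sialic acid-binding receptor with the 4 motifs printed above, had 300, 117, 174 and 175 TPM in LPS-treated cells and 696, 447, 505 and 336 TPM in resting cells (-1.40 ± 0.29, limma adjusted p = 0.002). Inpp5d and Cd22 also separated the groups completely, as did Cd72, a C-type lectin receptor (-1.15 ± 0.26, limma adjusted p = 0.002). The Fc receptor Fcgr2b, which restrains B cells bound by immune complexes, had 233, 112, 123 and 125 TPM in LPS-treated cells and 130, 76.0, 97.5 and 58.9 TPM in resting cells. The LPS value exceeded the resting value within each genotype, but the groups overlapped through the resting wt library and the difference of 0.70 ± 0.28 missed the threshold (limma adjusted p = 0.052); without that library it was 0.89 ± 0.26 (limma adjusted p = 0.007), and Fcgr2b was called higher under 6 of the 17 alternatives (adjusted p = 0.004 to 0.134). Ptpn6 was not called (-0.44, 95% interval -0.92 to 0.04).

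Of the members with both roles, Bank1, a scaffold that links Lyn to calcium release, had 143, 53.8, 86.7 and 90.2 TPM in LPS-treated cells, against 446, 219, 292 and 217 TPM in resting cells (-1.66 ± 0.31, limma adjusted p = 0.00099). Lat2, a membrane adaptor, fell by less (-0.59 ± 0.22, limma adjusted p = 0.035), and its call held under only 9 of the 17 alternatives (adjusted p = 0.004 to 0.333). It was lost without any 1 of the resting wt and co or LPS cr, co and hv libraries. The highest p came without the libraries rich in Gm10800. The adaptor Grb2 did not pass (0.08, 95% interval -0.39 to 0.56). Without the libraries rich in Gm10800 the fold changes of Cd79b (-0.75), Cd22 (-0.89), Cd72 (-0.68) and Bank1 (-1.10) were smaller but passed. Fcgr2b was then called higher (1.15 ± 0.31, limma adjusted p = 0.015). Macrophage markers moved with these results: 8 of the 9 tested fell, their summed level was 5.28 to 18.5 TPM in LPS libraries and 139 to 931 TPM in resting libraries, and 5 of the 10, at under 0.5 TPM in every LPS library, were near 0. Lyn, Syk, Fcgr2b, Ptpn6, Inpp5d, Dok3 and Pik3ap1 are also expressed by macrophages, and the part of those cells in the result was not tested. B-cell markers that are not members moved too, with 6 of 8 lower and a median of -1.24, whereas 4 of 6 plasma-cell markers rose (median 1.14).

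**Figure D2:**
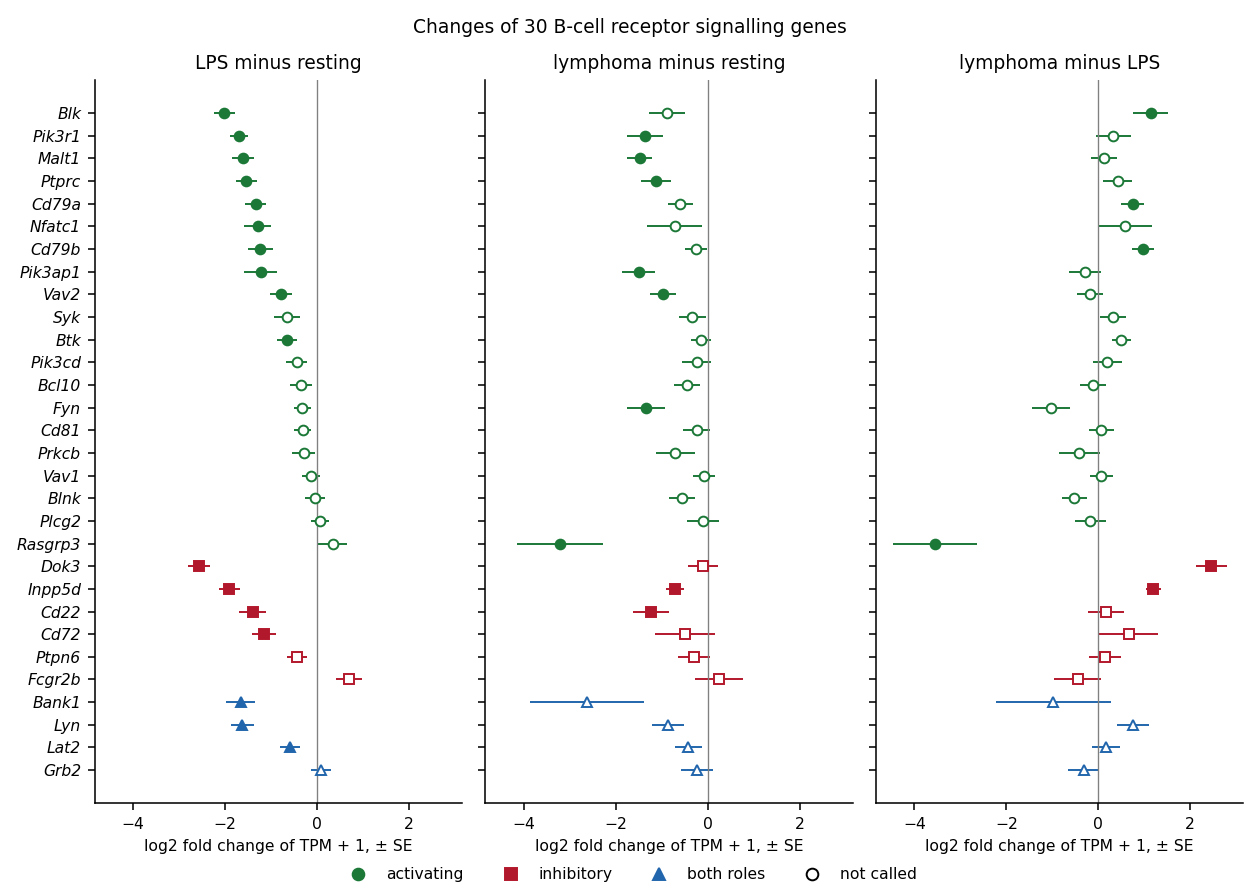
Log2 fold change (x axis, ± SE) of each member (rows, grouped by role) in panels for LPS minus resting, lymphoma minus resting and lymphoma minus LPS, with filled points for calls at a limma adjusted p under 0.05. No filled point lies above 0 for lymphoma or LPS against resting, and Dok3 and Inpp5d show filled points on opposite sides of 0 for LPS minus resting and lymphoma minus LPS.

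Against resting B cells, lymphomas had lower levels of 9 members, and 0 were higher, while 21 did not pass (31.9% of the 13239 genes tested were called, 17.4% lower). The 9 were 7 of 20 activating members (Rasgrp3, Pik3ap1, Malt1, Pik3r1, Fyn, Ptprc and Vav2), 2 of 6 inhibitory members (Cd22 and Inpp5d) and 0 of the 4 with both roles. In 1 member, Malt1, the groups did not overlap, a pattern found for 4.92% of all genes in that direction. The median fold change was -0.57 over the members, -0.64 over the activating, -0.39 over the inhibitory and -0.64 over those with both roles, beside -0.06 over all genes. The resting wt library set much of the count: without it 3 members were called lower, namely Malt1, Pik3ap1 and Pik3r1. The count was also 3 without the libraries rich in Gm10800. In this comparison those are the same wt library and the lymphoma MLN.cr.T6, so this is no separate check. Only Malt1 and Pik3ap1 were called under each of the 17 alternatives tried. Among these, leaving out the wt samples and leaving out the resting wt library are the same fit.

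Rasgrp3 had the largest called fall. It had 0.146, 1.75 and 75.0 TPM in lymphomas (lowest, median, highest), against 82.7, 31.4, 37.6 and 28.2 TPM in resting wt, cr, co and hv cells. The groups overlapped through the highest lymphomas (-3.21 ± 0.93, limma adjusted p = 0.010), and the call was lost without the resting wt library (adjusted p = 0.057) or without the libraries rich in Gm10800 (adjusted p = 0.067). Malt1, the protease of the complex that links protein kinase C to NF-kappa-B, ranged over lymphomas as lowest 14.9, median 29.9 and highest 50.9 TPM, against 116, 67.8, 80.0 and 63.0 TPM in resting wt, cr, co and hv cells. Its highest lymphoma was below the lowest resting library (-1.48 ± 0.28, limma adjusted p = 0.00027). Pik3ap1 had lymphoma values of 13.6, 26.6 and 88.8 TPM (lowest, median, highest), against 159, 71.6, 76.1 and 52.0 TPM in resting cells. The lymphoma Lung.hv.T16 held the highest value and overlapped the resting range (-1.50 ± 0.36, limma adjusted p = 0.003). Pik3r1 had 7.68, 21.3 and 58.2 TPM in lymphomas (lowest, median, highest), against a resting mean of 57.9 ± 14.9 TPM (SD, n = 4). The overlap again came from the upper end of the lymphomas (-1.36 ± 0.40, limma adjusted p = 0.011), and the call was lost among lymphomas whose sample names were written with separated parts (adjusted p = 0.057).

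Fyn had 1.63, 8.97 and 33.8 TPM in lymphomas (lowest, median, highest), against 25.1, 23.8, 20.3 and 19.3 TPM in resting cells. It was the only Src-family kinase of the list called lower in lymphomas (-1.34 ± 0.42, limma adjusted p = 0.016). The Fyn call was lost without the resting wt library (adjusted p = 0.061). Blk (-0.88 ± 0.39, limma adjusted p = 0.082) and Lyn (-0.86 ± 0.35, limma adjusted p = 0.059) also had negative fold changes, so this does not set Fyn apart from them. Fyn is also expressed by T cells, whose 8 markers summed to 1.01 to 142 TPM in lymphomas and 13.4 to 81.4 TPM in resting libraries; the part of those cells in this result was not tested. Cd22 had 83.8, 217 and 475 TPM in lymphomas (lowest, median, highest), against a resting mean of 496 ± 151 TPM (-1.24 ± 0.39, limma adjusted p = 0.017). Ptprc had 154, 285 and 739 TPM in lymphomas, against 642 ± 155 TPM in resting cells (-1.12 ± 0.32, limma adjusted p = 0.009). Inpp5d had 113, 163 and 230 TPM in lymphomas, against 292 ± 100 TPM in resting cells (-0.71 ± 0.19, limma adjusted p = 0.007). The calls of Cd22, Ptprc, Inpp5d and Vav2 were also lost without the resting wt library (adjusted p = 0.091, 0.055, 0.084 and 0.081). Macrophage markers were lower here too, in 7 of the 9 tested, with sums of 6.89 to 140 TPM in lymphomas.

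The receptor chains and the kinases Lyn, Syk and Btk did not pass in this comparison. Cd79a averaged 341 ± 115 TPM in lymphomas (SD, n = 19) and 506 ± 169 TPM in resting cells (SD, n = 4), a log2 difference of -0.59 ± 0.27 (limma adjusted p = 0.093). Cd79b averaged 674 ± 189 TPM in lymphomas and 803 ± 245 TPM in resting cells (-0.26, 95% interval -0.75 to 0.23). The intervals were -0.95 to 0.29 for Syk, -0.60 to 0.30 for Btk, -1.58 to -0.15 for Lyn (adjusted p = 0.059) and -0.81 to 1.31 for Fcgr2b, so differences of the size seen for Malt1 were inside the interval for Lyn alone among these. Bank1 had the second most negative fold change of the comparison, -2.63 ± 1.24, without passing (limma adjusted p = 0.107); its lymphoma values ran from 0.344 to 373 TPM.

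Against LPS-treated cells, 5 members were higher in lymphomas (Dok3, Inpp5d, Blk, Cd79b and Cd79a), 1 was lower (Rasgrp3) and 24 did not pass, with 13.8% of the 12880 genes called, 5.27% higher and 8.56% lower. The groups did not overlap for 2 members that were higher, Dok3 and Inpp5d, and for 0 that were lower (1.29% and 2.05% of all genes). The median fold change was 0.15 over the members, 0.10 over the activating, 0.41 over the inhibitory and -0.07 over those with both roles, beside 0.03 over all genes. Dok3 had 26.3, 80.5 and 132 TPM in lymphomas (lowest, median, highest), against 15.8 TPM in the highest LPS library (2.46 ± 0.33, limma adjusted p = 9.1e-06). Inpp5d exceeded 113 TPM or equalled it in all 19 lymphomas, against 86.4 TPM in the highest LPS library (1.20 ± 0.17, limma adjusted p = 3.1e-05). Both are inhibitors, and they were the members called under each of the 17 alternatives. Of the macrophage markers, 4 of the 8 tested were higher in lymphomas and 0 lower (median 0.92), with sums of 6.89 to 140 TPM in lymphomas and 5.28 to 18.5 TPM in LPS libraries. Of the 7 plasma-cell markers, 3 were lower in lymphomas and 0 higher (median -1.07), with sums of 132 to 636 TPM in lymphomas and 565 to 716 TPM in LPS libraries. The part of these cells in the Dok3 and Inpp5d results was not tested.

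The calls of the activating members were less firm. Cd79b averaged 674 ± 189 TPM in lymphomas and 346 ± 126 TPM in LPS-treated cells (SD; n = 19 and 4), a difference of 0.97 ± 0.24 (limma adjusted p = 0.009) that was lost without the LPS cr library (adjusted p = 0.064) and among lymphomas with separated names (adjusted p = 0.084). Cd79a averaged 341 ± 115 TPM in lymphomas and 193 ± 26.0 TPM in LPS-treated cells (0.75 ± 0.25, limma adjusted p = 0.049). Blk averaged 90.4 ± 51.7 TPM in lymphomas and 35.9 ± 7.99 TPM in LPS-treated cells (1.14 ± 0.38, limma adjusted p = 0.047). The Cd79a and Blk calls were lost on leaving out any of the 4 LPS libraries, and also among lymphomas with separated names for Cd79a (adjusted p = 0.155) and with joined names for Blk (adjusted p = 0.116). Rasgrp3 averaged 10.9 ± 19.4 TPM in lymphomas and 52.6 ± 9.51 TPM in LPS-treated cells (-3.55 ± 0.92, limma adjusted p = 0.012), a call that was lost without the libraries rich in Gm10800 (adjusted p = 0.147). Cd22 (0.16, 95% interval -0.65 to 0.97), Fcgr2b (-0.45, -1.52 to 0.61), Ptprc (0.42, -0.23 to 1.07), Lyn (0.76, 0.04 to 1.47), Syk (0.32, -0.28 to 0.92) and Btk (0.50, 0.07 to 0.92) did not pass.

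The 3 comparisons share samples, so their values are set side by side and not as independent evidence. Inpp5d was lower in LPS-treated cells and in lymphomas than in resting cells, and higher in lymphomas than in LPS-treated cells. Cd22, Malt1, Pik3ap1, Pik3r1, Ptprc and Vav2 were lower in both against resting cells, with no call between the 2. Blk, Cd79a, Cd79b and Dok3 were called lower in LPS-treated cells and higher in lymphomas than in LPS-treated cells, with no call against resting cells. Bank1, Btk, Cd72, Lat2, Lyn and Nfatc1 were called in LPS-treated cells only, which does not show that lymphomas differ from them. Bcl10, Blnk, Cd81, Fcgr2b, Grb2, Pik3cd, Plcg2, Prkcb, Ptpn6, Syk and Vav1 were called in no comparison.

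The balance between the activating and the inhibitory members was also taken within each sample, as the median log2 value of the 20 activating members minus that of the 6 inhibitory ones, each relative to the mean of the resting samples. It ranged from -0.77 to 0.15 in lymphomas (median -0.36), from 0.58 to 0.78 in LPS libraries and from -0.09 to 0.04 in resting libraries. The LPS libraries lay above all others. Both sides were low in them, the inhibitory median at -1.78 to -0.80 and the activating median at -1.0 to -0.21. In lymphomas the activating median ran from -1.50 to 0.16 and the inhibitory one from -1.01 to 0.87. The size of this balance rests on 6 inhibitory genes, of which Dok3 and Inpp5d fell furthest with LPS. The fold-change medians differed, activating minus inhibitory, by 0.63 for LPS minus resting, by -0.25 for lymphoma minus resting and by -0.31 for lymphoma minus LPS.

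**Figure D3:**
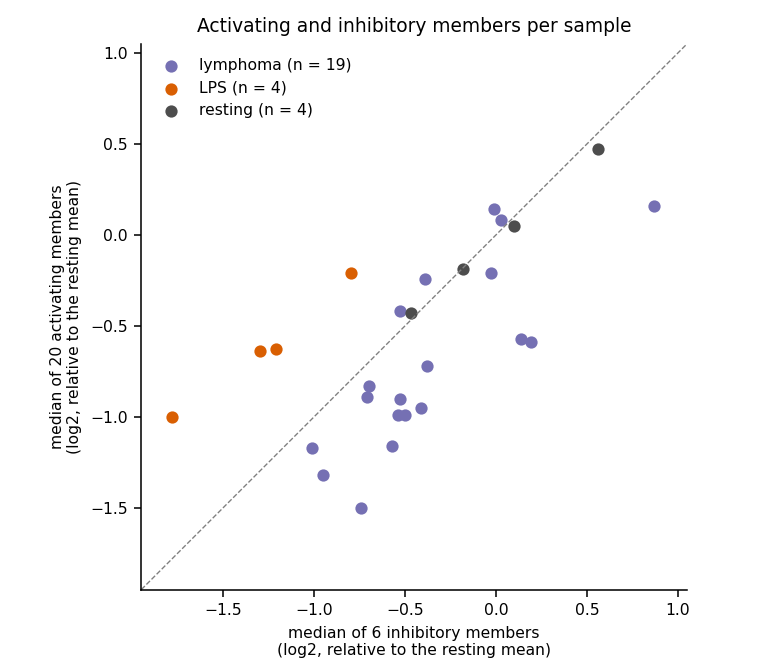
Median of the inhibitory members (x axis) and of the activating members (y axis) in each sample, as log2 difference from the mean of the resting samples, for lymphomas, LPS and resting libraries. The 4 LPS points have inhibitory medians of -1.78 to -0.80 and lie above the dashed line of equal change, with activating minus inhibitory medians of 0.58 to 0.78.

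Lymphomas differed widely from each other in a few members. The SD of log2(TPM + 1) over the 19 lymphomas had a median of 0.66 among the members and 0.51 among all genes, and 8 members were above the 90th percentile of genes of like level. Bank1 had the widest spread (SD 2.61, percentile 99.8), with 0.344, 0.429, 1.30 and 1.56 TPM in MLN.cr.T6, MLN.cr.T20, Lung.cr.T14 and Lung.hv.T7. The other 15 lymphomas had 30.4 to 373 TPM. Those 4 lymphomas included the 3 with the least Fcgr2b, at 24.0, 27.1 and 31.1 TPM. They were also the 4 lowest for the member Cd22, by a narrow margin, at 83.8 to 113 TPM against at least 116 TPM in the other 15. Of all markers of other cell types and of B cells checked, 2 set the same 4 apart from the other 15: the plasma-cell marker Sdc1, at 17.6 to 46.4 TPM in the 4 and at most 5.79 TPM in the others, and the T-cell marker Cd247, at 12.8 to 55.6 TPM and at most 1.74 TPM. The whole lists overlapped, with plasma-cell sums of 349 to 636 TPM in the 4 and 132 to 575 TPM in the others, and T-cell sums of 30.3 to 97.0 TPM in the 4 and 1.01 to 142 TPM in the others. Other genes of these lists did not set the 4 apart. In the 4, Cd3e reached 0.28 TPM, Cd8a 0.867, Cd4 0.986 and Tnfrsf17 0.665. In the others they reached 1.3, 3.21, 4.88 and 3.3 TPM. Cd3g was 2.74 to 59.2 TPM in the 4 and up to 96.5 TPM in the others. Which cells the Sdc1 and Cd247 RNA came from, and any link to the low Bank1 values, was not tested. Cd72 ranged from 9.04 TPM in PLN.hv.T15 to 700 TPM in Lung.hv.T39 (SD 1.35, percentile 98.9). The least variable members were Inpp5d (SD 0.32, percentile 14), Btk (0.40) and Cd79b (0.44).

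Rasgrp3 was under 2 TPM in 10 of the 19 lymphomas. The read pairs behind these values differed, from about 16.3 in Lung.cr.T9 to about 153 in Lung.hv.T14. The same 5 lymphomas were the highest for Rasgrp3 and for Nfatc1, the NFAT factor that calcium signalling activates: PLN.hv.T15, Lung.co.T30, Lung.hv.T16, Lung.hv.T39 and Lung.co.T34. They had 13.5 to 75.0 TPM of Rasgrp3, against at most 6.98 TPM in the others, and 31.4 to 104 TPM of Nfatc1, against at most 19.0 TPM. The pattern was not particular to these genes. The member Blnk was highest in the same 5, at 152 to 226 TPM against at most 149 TPM. The 5 were highest for the member Pik3cd as well, at 95.9 to 130 TPM against at most 85.4 TPM. They were also highest for the B-cell markers Ms4a1 (489 to 639 TPM against at most 398) and Cd37 (259 to 385 against at most 255). The B-cell marker Pax5 did not set them apart. This is a description, chosen after the values were seen; the 5 come from 2 sites and from the hv and co names, and 1 of them is the sample with conflicting labels.

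**Figure D4:**
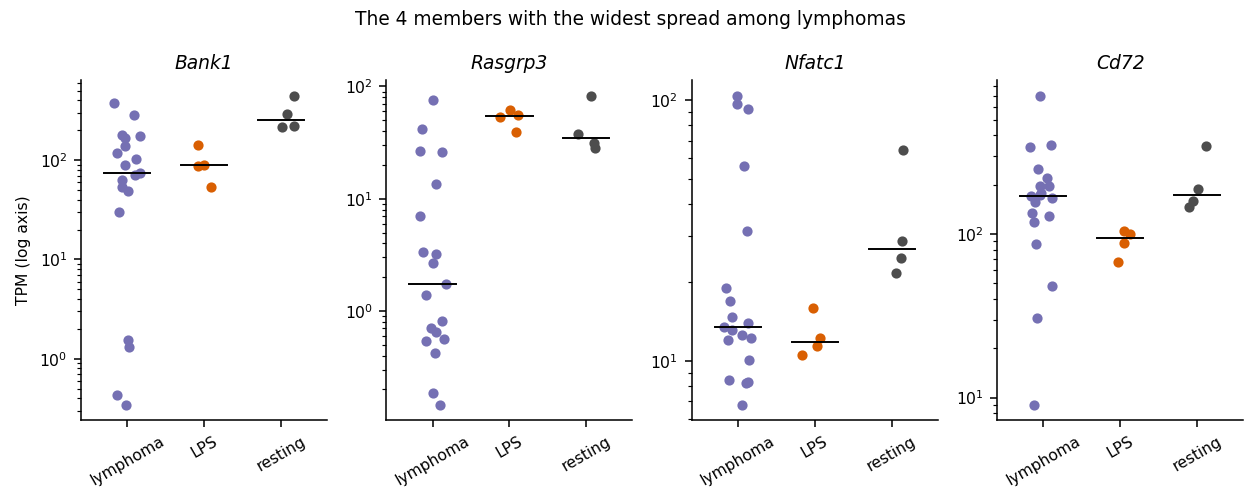
TPM on a log axis of Bank1, Rasgrp3, Nfatc1 and Cd72 in each lymphoma, LPS and resting sample, with a bar at the group's median. Bank1 shows 4 lymphomas between 0.344 and 1.56 TPM apart from the rest, and Rasgrp3 lies below 2 TPM in 10 lymphomas.

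No member was called between lymphomas of different names or sites. In a fit of 18 lymphomas with line and site as terms, 0 of 12480 genes passed in each of the contrasts hv against cr, co against hv and cr, and mesenteric node against lung within cr (0% called in each by limma). At an unadjusted p under 0.05 there were 0 members and 170, 406 and 209 genes in the 3 contrasts. The smallest unadjusted p in hv against cr was that of Pik3ap1 (0.87 ± 0.47, p = 0.085, limma adjusted p = 0.981), then Cd22 (0.76) and Blnk (0.61). In co against the others it was Nfatc1 (0.94 ± 0.60, limma adjusted p = 0.999), then Prkcb (0.50) and Pik3cd (0.43). In mesenteric node against lung it was Cd79b (-0.58 ± 0.30), then Prkcb (-0.86 ± 0.47) and Cd79a (-0.51), none near the adjusted threshold. Site and name are partly tied, since all 4 mesenteric samples are cr. The 3 lung cr lymphomas all have joined sample names and the 4 mesenteric ones separated names. Within cr, site and this naming difference therefore cannot be told apart.

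Shares of a gene's TPM were compared for 39 transcripts of 22 members with an exact two-sided permutation test, adjusted over all genes' transcripts. For LPS against resting 0 were called, as were 0 of all 10509 transcripts tested (0% in either direction). With 4 against 4 samples the smallest p the test allows is 0.029, reached by 16 transcripts in 9 members. Between lymphoma and LPS-treated cells 7 transcripts in 6 members passed, 3 with a higher share in lymphomas and 4 with a lower one (3.68% and 9.75% of all 10631). Between lymphoma and resting cells 7 transcripts in 7 members passed, 4 higher and 3 lower in lymphomas (9.21% and 7.74% of all 11016). For lymphoma against resting the members' shares, 10.3% higher and 7.69% lower, were close to those of all genes. Without the libraries rich in Gm10800 the counts were 0 for lymphoma against LPS and 3 for lymphoma against resting. Among the libraries left out are the LPS cr and hv ones. So few LPS libraries remain that the exact test has little room for a call after adjustment. That 0 therefore does not show whether the shares depend on those libraries.

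Syk showed the clearest pattern. Its transcripts Syk-201 and Syk-203 start at chr13:52596853 and chr13:52583173 (plus strand, GRCm38), 13680 bases apart, share their exon 2 and have the same coding length of 1887 bases. Syk-201 made up 77.4, 79.2, 84.4 and 81.9% of Syk in LPS-treated wt, cr, co and hv cells, against 40.8, 49.0, 44.0 and 47.7% in resting cells. Syk-203 made up 7.3, 6.9, 4.8 and 5.8% in LPS-treated cells, against 17.3, 18.9, 21.2 and 18.6% in resting cells. The groups did not overlap for either, and both had the smallest p (exact permutation p = 0.029, adjusted p = 0.077). In lymphomas Syk-201 averaged 54.6 ± 10.4% (SD, n = 19), against 80.7 ± 3.1% in LPS-treated cells (n = 4; exact permutation p = 0.00045, adjusted p = 0.011), and Syk-203 averaged 22.7 ± 9.1%, against 6.2 ± 1.1% (exact permutation p = 0.00023, adjusted p = 0.008). In TPM, Syk-201 averaged 101 ± 55.4 in lymphomas, 110 ± 29.8 in LPS-treated and 97.8 ± 28.9 in resting cells, and Syk-203 averaged 38.0 ± 18.2 in lymphomas, 8.66 ± 3.73 in LPS-treated and 41.5 ± 14.3 in resting cells. Kallisto divides shared reads between transcripts, so these shares are estimates.

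The sequence before the Syk-201 start is shown because it precedes the start of the transcript whose share differed most between lymphomas and LPS-treated cells. It runs over 221 bases at chr13:52596632-52596852, plus strand, from RefSeq (GRCm38.p6), with CG dinucleotides in capitals.
Syk-201 upstream: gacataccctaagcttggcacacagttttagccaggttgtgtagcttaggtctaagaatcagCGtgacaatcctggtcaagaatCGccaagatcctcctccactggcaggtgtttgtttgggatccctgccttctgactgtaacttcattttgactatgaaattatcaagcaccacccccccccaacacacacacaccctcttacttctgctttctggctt
It holds 2 CG dinucleotides, and 21.3% of promoter windows of the same length hold fewer. Searched on both strands, it holds no E-box CACGTG (in 5.6% of 32851 windows), no ETS core GGAAGT (18%) and no octamer ATTTGCAT (1.46%); these letters are not in this window, and nothing follows about the factors.

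Other transcripts differed by smaller shares. Ptprc-207, which has 33 exons and a coding length of 3879 bases, made up 61.6, 62.3, 68.0 and 64.4% of Ptprc in LPS-treated cells, against 51.8, 44.5, 44.5 and 40.9% in resting cells. In lymphomas it averaged 46.1 ± 5.8%, against 64.1 ± 2.8% in LPS-treated cells (exact permutation p = 0.00023, adjusted p = 0.008). Inpp5d-205, a transcript of only 344 bases, averaged 18.1 ± 4.3% in lymphomas, 8.4 ± 1.6% in LPS-treated and 29.2 ± 1.5% in resting cells. It passed against both (adjusted p = 0.008 and 0.007). Cd79b-202 averaged 90.6 ± 2.6% in lymphomas, against 83.6 ± 2.1% in LPS-treated and 83.2 ± 0.9% in resting cells (adjusted p = 0.020 and 0.015). Blnk-201 and Cd81-201 passed against LPS-treated cells, and Grb2-205, Blnk-202, Cd22-203, Btk-204 and Cd72-203 against resting cells.

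Intron-retaining transcripts were a smaller share of the members in LPS-treated cells. Of the 12 members with such a transcript, all 12 had a lower mean share in LPS-treated than in resting cells and 7 had no overlap. This was widespread: of 3646 genes with such a transcript and at least 5 TPM in both groups, 87.3% had a lower mean share in LPS-treated cells and 49.7% were lower with no overlap. For Syk the mean was 17.1 ± 5.0% in lymphomas, 9.0 ± 1.8% in LPS-treated and 27.8 ± 3.7% in resting cells. Over the 12 members the median of these means was 15% in lymphomas, 12.2% in LPS-treated and 20.2% in resting cells. All genes' intron-retaining transcripts moved likewise, at 3.74 to 6.82% of all TPM in lymphomas, 3.14 to 4.25% in LPS libraries and 6.28 to 6.82% in resting libraries. Leaving these transcripts out, an alternative chosen after the data were seen, took the Syk difference between LPS and resting cells to -0.31 (limma adjusted p = 0.306) and ended the call for Btk (-0.39, adjusted p = 0.113).

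**Figure D5:**
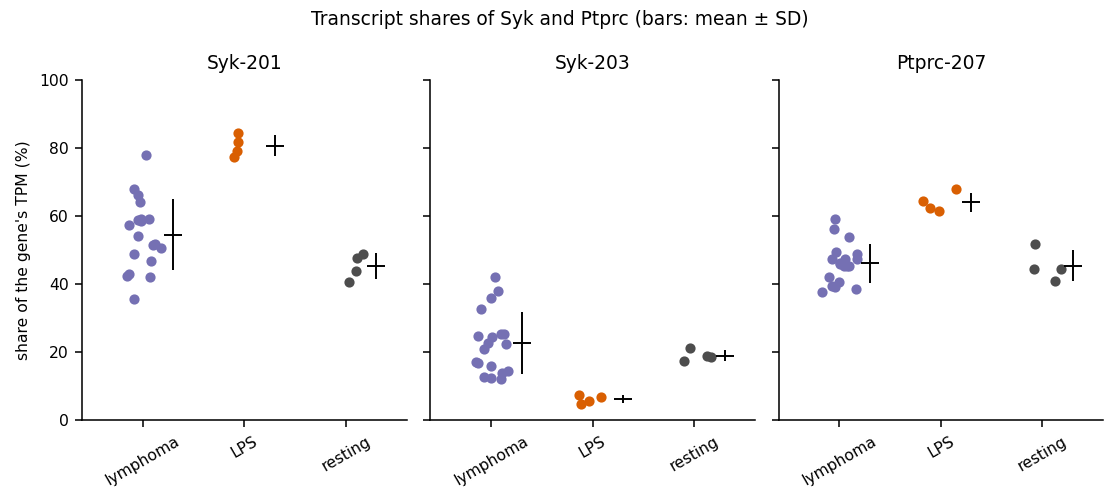
Share of the gene's TPM, in percent, held by Syk-201, Syk-203 and Ptprc-207 in each lymphoma, LPS and resting sample, with mean ± SD. Syk-201 lies between 77.4 and 84.4% in LPS libraries and between 40.8 and 49.0% in resting ones, with lymphomas averaging 54.6%.

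Beyond the members, 68 other genes of the pathway and of its co-receptors were counted whole. For LPS against resting 67 were tested, of which 36 fell and 5 rose (median -0.63). The largest falls were Ighd, the IgD heavy chain (62.7 ± 35.2 TPM in LPS-treated and 648 ± 265 TPM in resting cells, -3.51), the complement receptor Cr2 (-3.24) and the adaptor Sla (-2.77). The largest rises were the NF-kappa-B inhibitor Nfkbia (0.91), the IgM heavy chain Ighm (0.90; 4360 ± 1230 TPM in LPS-treated and 2380 ± 885 TPM in resting cells) and the kinase Mapk3 (0.81). For lymphoma against resting 15 fell and 3 rose of 68 (median -0.50), led by Cr2 (-6.89), Ighd (-2.88) and the adaptor Stap1 (-2.28) among falls and by the lipid phosphatase Inppl1 (SHIP-2; 1.88) and Akt1 (1.08) among rises. Inppl1 averaged 26.2 ± 16.5 TPM in lymphomas, 3.65 ± 0.332 in LPS-treated and 5.10 ± 0.770 in resting cells. For lymphoma against LPS 6 rose and 3 fell (median 0.27): Inppl1 (2.26), Sla (1.90) and Rasgrp2 (1.17) led the rises, and the falls were Cr2 (-3.65), Nfkbia (-1.66) and Igkc (-0.88).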

How the data were processed

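RNA of 27 samples of B220-purified mouse B cells was, per the labels' protocols, freed of ribosomal RNA and sequenced as stranded paired-end libraries. FastQC and kallisto 0.43 were used with the build mm10 (GRCm38), per the submitters' processing notes. Neither the transcript annotation nor the strand setting is given in the sources used. The authors deposited TPM for 88198 transcripts. These were summed to 30735 genes, 740 of them without a symbol.

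A gene entered a fit where it reached 1 TPM in 4 or more of the samples, and limma 3.58.1 (trend, robust; R 4.3.3) was run on log2(TPM + 1), each comparison on its own groups, with Benjamini-Hochberg adjustment over all genes tested and a threshold of 0.05. Fold changes on this scale understate changes of low genes, and all 30 members passed this filter in each fit. Limma's test was checked on simulated data. Depth was estimated from TPM times effective length, of which 60.7 to 75.6% of low values came out whole within 0.02 reads. The 95% intervals are limma's and rest on the spread between samples. Transcript shares were compared for transcripts at 20% or more of a gene at 5 TPM or more; their adjustment was widened from the members to all genes, unlike the planned one. 6 members overlap another gene, 5 on the opposite strand, all of them by genes at far lower levels than the member. Further software was scipy 1.17.1, numpy 2.4.6, pandas 2.3.3, matplotlib 3.10.9 and Biopython 1.88 under Python 3.11.15, and the R package data.table, version 1.17.8.

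The members, roles, gene lists and tests were chosen with earlier results of these data known. All members are accounted for; those described in full are the 6 largest called rises and falls of a comparison plus Cd79a, Cd79b, Cd22, Fcgr2b, Ptprc, Lyn, Syk and Btk. The alternatives were another pseudocount, no filter, other scalings, other limma settings, the 4 members with both roles counted on either side, subsets of libraries or lymphomas, and each replicate left out. Those on intron-retaining transcripts and transcript shares were chosen after seeing the data. The lymphoma with conflicting labels was left out of contrasts between names and sites. Malt1 and Nfatc1 sequences are not shown, and 1 result on another pathway gene is not reported here.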

Additional observations from a re-analysis of the deposited data

Results flagged for a closer look

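In 9 of 150 groups of values checked (30 members in 5 groups of samples), 1 sample lay far from the others of its group; chance alone flags about 1 in 20 groups. In the LPS group, Btk was lowest in the cr sample (31.9 TPM), and Fcgr2b (233 TPM) and Inpp5d (86.4 TPM) were highest in the wt sample. Among hv lymphomas, Blk was lowest in Lung.hv.T5 (18.6 TPM), Cd72 in PLN.hv.T15 (9.04 TPM) and Bank1 in Lung.hv.T7 (1.56 TPM). Among cr lymphomas, Rasgrp3 was highest in Lung.cr.T16 (3.20 TPM) and Cd72 lowest in MLN.cr.T1 (30.5 TPM). Among co lymphomas, Cd72 was lowest in Lung.co.T9 (48.2 TPM). As 9 of 150 is close to that chance rate, these flags, including the 3 of Cd72, are a list and not results about the members.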

How the results depend on the processing

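Over the alternatives, 0 member fold changes that were called turned their direction, and 13 of the 17 calls for LPS against resting held under all 17 alternatives, but only 2 of 9 for lymphoma against resting and 2 of 6 for lymphoma against LPS; where a cause is not given it was not tested. Without libraries above 1% Gm10800, which leaves fewer samples, the members called were 3 for lymphoma against resting and 2 for lymphoma against LPS, the called transcript shares were 3 and 0, and the activating minus inhibitory median for LPS against resting was 0.44. That median was 0.84 without intron-retaining transcripts. Lymphoma against resting had 3 members called without the wt samples. In each lymphoma comparison, leaving out the wt samples and leaving out the wt replicate are the same fit, counted as separate alternatives. With lymph node lymphomas only, the activating minus inhibitory median for lymphoma against LPS was 0.02, against -0.31 in all. With Lyn, Grb2, Lat2 and Bank1 counted as inhibitory it was -0.06, and -0.19 against -0.25 for lymphoma against resting. Leaving out each replicate gave 15 to 19 members called and activating minus inhibitory medians of 0.57 to 0.70 for LPS against resting. It gave 3 to 9 members, medians of -0.29 to -0.20 and 2 to 4 transcript shares for lymphoma against resting. For lymphoma against LPS it gave 3 to 4 members, medians of -0.35 to -0.23 and 4 to 5 transcript shares. The contrasts of names and sites stayed at 0. The LPS against resting shares were at 0 too, but that result was fixed in advance. With a replicate left out, the smallest p the exact test allows is above the threshold, so no share could be called. Lymphomas with joined and with separated sample names gave 10 and 7 members against resting, and 5 and 4 against LPS. Rescaling without Gm20594, Gm10800 and haemoglobin moved the median of all genes for LPS against resting to -0.30 from -0.16 and called 23 members lower; median-of-ratios scaling moved it to 0.03, with 16 lower and 1 higher, and 53.9% of all calls higher against 43.3%. Rescaling called 12 members for lymphoma against resting, with 31.9% of all calls higher against 45.4%. For LPS against resting the members' median, less that of all genes, stayed at -0.56 to -0.54 under each scaling. Same-genotype LPS and resting samples correlated by 0.0585, 0.222, 0.34 and 0.063 (wt, cr, co, hv). Samples of unlike genotype correlated by -0.397 to 0.298, so the ranges overlapped. Whether the genotype label pairs the samples was not tested. With a replicate block by genotype 19 members were called, 18 lower and 1 higher. This added Syk (lower, limma adjusted p = 0.008) and Fcgr2b (higher, limma adjusted p = 0.004). Below 2 TPM, Rasgrp3 and Bank1 rested on as few as about 16 read pairs in some lymphomas, which limits what the lowest values can show.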
